A study of Mus musculus with 6 samples.

Results

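The 10 genes described here encode proteins that neutrophils store in their granules, and were chosen by name: Elane, Mpo, Prtn3 and Ctsg for the primary granules, and Ltf, Camp, Ngp, Lcn2, Mmp8 and Chil3 for granules formed later. All 10 were found among the 54532 genes of the deposited expression table. The study measured RNA of ground mouse femurs in 6 samples. The labels put 3 in a group named Zin, given oral zingerone, a compound of ginger, at a daily 100 mg/kg over 8 weeks, and 3 in a group named OVX (ovariectomized), with saline as the solvent control. All are labelled WT, with no strain, age or animal identity, and the titles carry 8, 9 and 10 weeks for the 3 samples of each group. Values could be tied to their labels for the 3 OVX samples alone, called libraries 1, 2 and 3 here with 8, 9 and 10 weeks in their titles. The Zin samples were therefore not analysed here, and no effect of zingerone is reported. Library and week in the title cannot be told apart. The labels also name the macrophage-like mouse cell line RAW264.7 and osteoclast precursor cells, while the extraction text names femurs. The 6 neutrophil markers Ly6g, S100a8, S100a9, Cxcr2, Csf3r and Retnlg were all detected and took 1.14%, 1.24% and 1.15% of the reads in libraries 1, 2 and 3. Library 2 stood apart in markers of other tissues. Its 5 chondrocyte markers summed to 470 FPKM (a level per gene length), against 24.4 and 50.9 in libraries 1 and 3, and its 5 osteoblast markers to 2928 FPKM, against 1339 and 795. Its 5 skeletal muscle markers summed to 63.5 FPKM, against 886 and 584.

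Neutrophils make their granule proteins in sequence while they mature in bone marrow. Primary (azurophil) granules form first, in promyelocytes, and hold myeloperoxidase and serine proteases. Specific granules follow in myelocytes and metamyelocytes with lactoferrin, cathelicidin and lipocalin, and gelatinase granules come last. Within the neutrophil path, the transcripts of each class are largely confined to its stage. Primary granule mRNA is thus made mainly at the earlier stages, and later granule mRNA at the stages after them. Mature neutrophils carry the proteins but little of the mRNA. The factors PU.1 and C/EBP family members are known to drive granule genes, with C/EBP epsilon needed for the specific granule class.

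The promoters of 6 members are shown as examples of the motifs found in each class, with 3 primary granule genes and the 3 later granule genes that lie near each other on chromosome 9. Each sequence runs from 250 bases before to 50 bases from the start site of the gene in RefSeq on GRCm38.p6, 5′ to 3′ on the strand of the gene. Capitals mark the letters GAGGAAG, a PU.1 motif, and GCAAT, the core of a C/EBP motif, on either strand, so that ATTGC marks GCAAT on the other strand. The windows are chr10:79886062-79886361 (plus strand) for Elane, chr11:87793534-87793833 (plus strand) for Mpo and chr10:79879417-79879716 (plus strand) for Prtn3 among primary granule genes. They are chr9:111019042-111019341 (plus strand) for Ltf, chr9:109849407-109849706 (minus strand) for Camp and chr9:110419558-110419857 (plus strand) for Ngp among later granule genes.
Elane: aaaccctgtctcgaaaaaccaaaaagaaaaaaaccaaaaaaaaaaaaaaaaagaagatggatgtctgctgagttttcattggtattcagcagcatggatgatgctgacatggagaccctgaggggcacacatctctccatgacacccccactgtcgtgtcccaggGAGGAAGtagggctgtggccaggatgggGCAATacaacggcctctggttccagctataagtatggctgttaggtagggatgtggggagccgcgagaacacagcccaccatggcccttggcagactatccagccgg
Mpo: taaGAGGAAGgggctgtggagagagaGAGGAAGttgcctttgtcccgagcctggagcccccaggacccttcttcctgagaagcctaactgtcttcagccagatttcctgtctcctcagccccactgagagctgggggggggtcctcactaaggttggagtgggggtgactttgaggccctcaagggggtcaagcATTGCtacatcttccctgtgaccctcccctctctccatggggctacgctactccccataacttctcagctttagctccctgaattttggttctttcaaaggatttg
Prtn3: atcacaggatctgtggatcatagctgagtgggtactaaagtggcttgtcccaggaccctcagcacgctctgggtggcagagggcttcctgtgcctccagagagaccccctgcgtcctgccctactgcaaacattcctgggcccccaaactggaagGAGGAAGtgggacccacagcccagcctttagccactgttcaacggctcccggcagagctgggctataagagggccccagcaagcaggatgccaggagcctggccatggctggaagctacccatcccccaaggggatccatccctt
Ltf: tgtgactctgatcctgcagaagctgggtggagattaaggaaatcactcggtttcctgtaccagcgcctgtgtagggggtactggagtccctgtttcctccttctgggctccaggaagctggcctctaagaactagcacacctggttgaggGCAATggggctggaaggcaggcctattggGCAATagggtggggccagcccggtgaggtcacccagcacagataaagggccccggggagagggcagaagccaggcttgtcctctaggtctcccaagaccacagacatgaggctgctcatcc
Camp: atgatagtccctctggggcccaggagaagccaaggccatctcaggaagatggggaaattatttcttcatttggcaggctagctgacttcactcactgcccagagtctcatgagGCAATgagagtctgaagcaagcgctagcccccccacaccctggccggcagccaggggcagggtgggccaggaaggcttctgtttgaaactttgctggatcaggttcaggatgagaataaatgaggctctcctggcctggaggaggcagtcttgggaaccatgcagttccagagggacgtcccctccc
Ngp: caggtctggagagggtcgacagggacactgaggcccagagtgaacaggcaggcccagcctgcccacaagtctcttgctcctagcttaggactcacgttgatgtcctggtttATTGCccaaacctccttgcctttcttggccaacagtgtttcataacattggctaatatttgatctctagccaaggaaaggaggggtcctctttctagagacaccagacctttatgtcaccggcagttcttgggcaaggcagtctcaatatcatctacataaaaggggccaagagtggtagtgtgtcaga

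A match to GAGGAAG was found in the windows of 4 of 4 primary granule genes and of 2 of 6 later granule genes, Lcn2 and Mmp8. Over all 32851 promoter windows of this length 13.6% held one. GCAAT was found for 2 of 4 primary granule genes, Elane and Mpo, and for 6 of 6 later granule genes, against 26.4% of all windows. In Elane the match to GAGGAAG began 85 bases before the start site and GCAAT 57 bases before it, and in Prtn3 the match to GAGGAAG began 95 bases before it. In Camp, Ngp and Lcn2, GCAAT began 137, 139 and 139 bases before the start site, while in Chil3 it lay 27 bases downstream. Only for Ctsg and Chil3 is the RefSeq start site also the start of the gene as the expression table gives it. In Mmp8 it lies before that start, and in the other members within the gene, farthest in Prtn3. All distances here are from the RefSeq start site. The letters TATAA occurred for 3 of 4 primary and 2 of 6 later granule genes, and in 24.9% of all windows. In Elane and Prtn3 this match began 31 and 32 bases before the start site. AACNG, a MYB motif, occurred for all 10 members but also in 80.3% of all windows. No match to one of these motifs overlapped a match to another in the 10 windows, while the TATAA matches of Mmp8 on both strands overlapped each other. The motifs were chosen after the sequences had been read. A match describes letters and not a bound site.

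**Figure D1:**
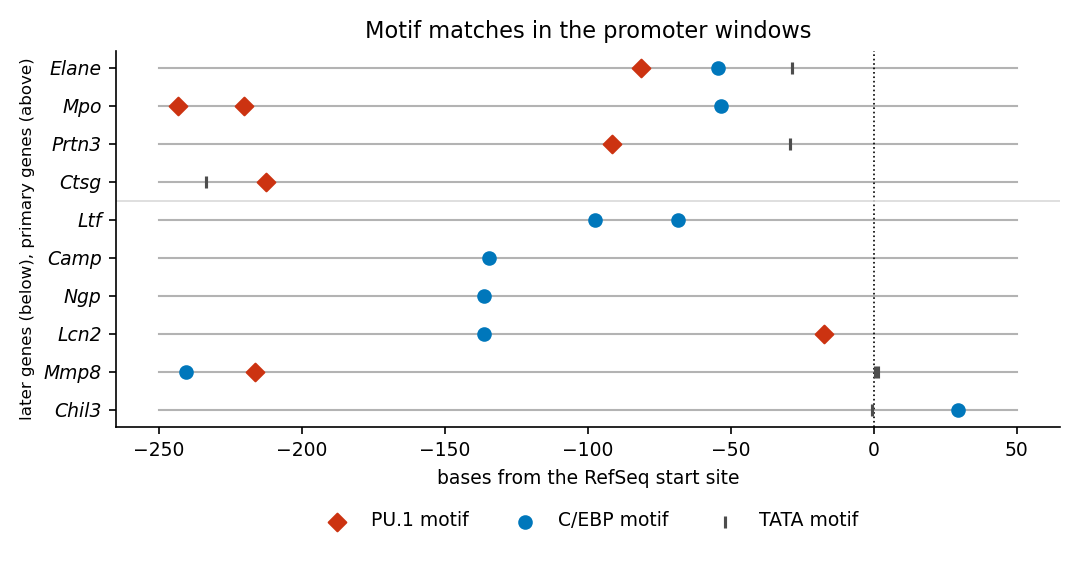
Motif matches in the 300-base promoter windows of the 10 members, with bases from the RefSeq start site on the horizontal axis and 1 line per gene, primary granule genes above later ones. All 4 primary granule genes hold the PU.1 motif and all 6 later granule genes the C/EBP motif.

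Primary granule transcripts were abundant, though below those of Ngp, Camp, Chil3 and Ltf. Elane, which encodes neutrophil elastase, had 523, 472 and 509.6 FPKM (fragments counted on a gene, relative to its length and to the library total) in libraries 1, 2 and 3. Library 2 was the lowest, and the mean was 501.5 ± 26.6 FPKM (SD, n = 3). Mpo, the peroxidase that makes hypochlorous acid, had 252, 212 and 238 FPKM, with a mean of 234 ± 20.5 (SD, n = 3). It varied more than any other member, by 8.75% of its mean (CV), and was also lowest in library 2.

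Prtn3, the serine protease proteinase 3, had 232, 205 and 214 FPKM, with a mean of 217 ± 14.0 (SD, n = 3). It was again lowest in library 2, although the exact Poisson 95% intervals of libraries 2 and 3, 200 to 210 and 209 to 219.6 FPKM, overlapped. Ctsg, the serine protease cathepsin G, had 165, 164 and 183 FPKM, with a mean of 170.5 ± 10.5 (SD, n = 3). Here library 3 stood above the others, and libraries 1 and 2 differed by less than their counting error, with intervals of 159 to 171 and 158 to 170.1 FPKM. Elane, Mpo and Prtn3 were each highest in library 1, as were 33.3% of the 14011 tested genes, those averaging 1 FPKM or more, and 18.6% of those of at least 100 FPKM.

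Among later granule genes, Ngp, which encodes the cathelicidin-related neutrophilic granule protein, had 3331, 3472 and 3328 FPKM. Its mean of 3377 ± 82.5 FPKM (SD, n = 3) ranked 8 among all genes listed. Camp, which encodes the antimicrobial cathelicidin CRAMP, had 1975, 2140.0 and 1941 FPKM, with a mean of 2019 ± 106 (SD, n = 3) and rank 13. Both were highest in library 2, with libraries 1 and 3 close together.

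Chil3, the chitinase-like lectin Ym1 that monocytes and macrophages also make, had 681, 768 and 709 FPKM, with a mean of 719 ± 44.1 (SD, n = 3). Lcn2, the siderophore-binding lipocalin, had 487, 515 and 465 FPKM, with a mean of 489 ± 25.2 (SD, n = 3). Both were highest in library 2, beyond the counting intervals of libraries 1 and 3. Chil3 has a close paralog, Chil4, listed with 0, 1 and 1 reads, and how reads shared by such copies were counted is not known, so the level of Chil3 is uncertain in that respect.

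Ltf, the iron-binding protein lactoferrin, had 668, 665 and 649.8 FPKM, with a mean of 661 ± 9.75 (SD, n = 3). Mmp8, neutrophil collagenase, had 160.3, 163 and 162 FPKM, with a mean of 162 ± 1.40 (SD, n = 3). Mmp8 varied by 0.864% (CV), less than the 1.23% that counting error alone gives at its mean of reads. The CV of Ltf was 1.48%. The other members varied by 2.44% to 8.75%, and the median over the 415 genes averaging 100 FPKM or more was 4.91%.

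**Figure D2:**
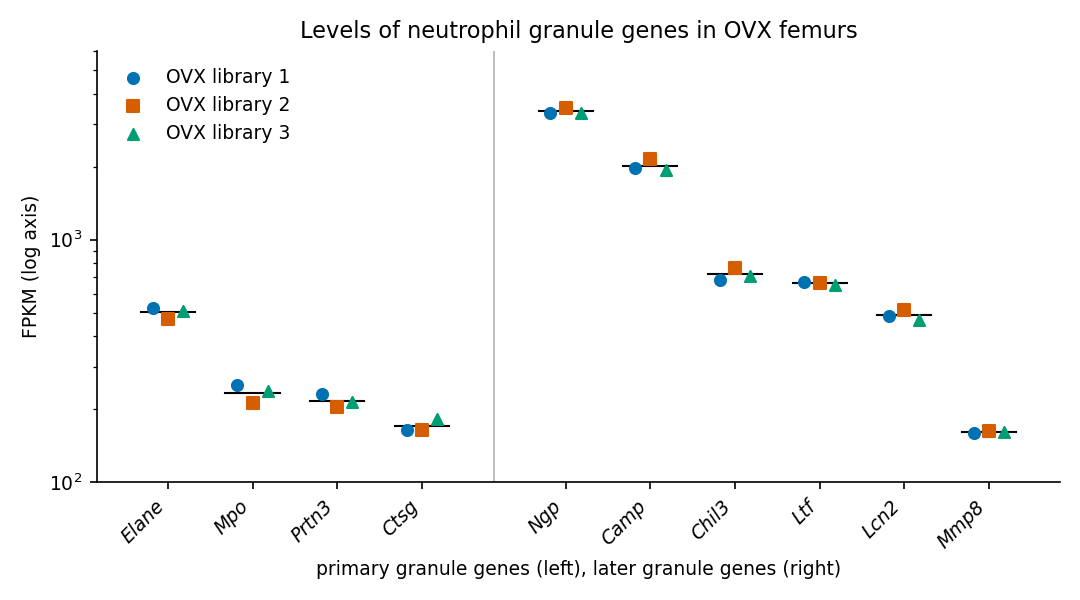
FPKM on a log axis of each member in OVX libraries 1, 2 and 3 (points), with the mean as a bar, for primary granule genes on the left and later granule genes on the right. Levels run from Ngp at 3377 FPKM down to Mmp8 at 162 FPKM, with overlapping ranges for Elane and Lcn2.

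By mean FPKM, which is per gene length, the order was Ngp, Camp, Chil3, Ltf, Elane, Lcn2, Mpo, Prtn3, Ctsg and Mmp8. Elane and Lcn2 did not differ beyond their spread, with Elane higher in 2 of 3 libraries. The ranges of Mpo and Prtn3 also overlapped, although Mpo was higher in 3 of 3 libraries. The other neighbours kept their order in 3 of 3 libraries with no overlap, though Ctsg was above Mmp8 by 1.05 times alone. Within a library the ratio of Elane to Mpo was 2.15 ± 0.0766, that of Ngp to Camp 1.67 ± 0.0469 and that of Camp to Lcn2 4.13 ± 0.0623 (SD, n = 3). Across the classes, the ratio of Mpo to Ltf was 0.377, 0.318 and 0.367 in libraries 1, 2 and 3. Elane made up 44.7% ± 0.161 of the summed FPKM of its class and Ngp 45.5% ± 0.470 of the later class (SD, n = 3).

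In library 2 the primary class had its lowest sum and the later class its highest. The 4 primary granule genes summed to 1172, 1052 and 1145 FPKM in libraries 1, 2 and 3, and the 6 later granule genes to 7303, 7723 and 7255 FPKM. The primary sum was 0.161, 0.136 and 0.158 times the later sum, with a mean of 0.152 ± 0.0133 (SD, n = 3). This ratio fell by 14.4% in library 2 relative to the mean of libraries 1 and 3, and does not depend on how the libraries are scaled. By reads, the primary class held 15.5%, 13.3% and 15.1% of the reads of all 10 members, with exact Clopper-Pearson 95% intervals of 15.3% to 15.6%, 13.2% to 13.5% and 14.9% to 15.3%. The interval of library 2 did not overlap those of libraries 1 and 3. Library 2 is also the one with the highest cartilage and bone marker sums and the lowest muscle sum, and the part of these tissues in the granule values was not tested. In bulk tissue, fewer cells of a stage and less RNA per cell cannot be told apart.

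Gene by gene, 4 of 4 primary granule genes were lowest in library 2, where 36.8% of all tested genes and 31.6% of the genes of at least 100 FPKM were lowest. Relative to the mean of libraries 1 and 3, library 2 stood at -13.6% for Mpo, -8.62% for Elane, -8.20% for Prtn3 and -5.62% for Ctsg. For Ctsg, library 2 stood at -0.526% against library 1 alone, within counting error, and library 3 was above both. Of the later granule genes, 5 of 6 were highest in library 2, where 34.8% of all tested genes and 35.9% of those of at least 100 FPKM were highest. The exception was Ltf, and for Mmp8 the counting intervals of all libraries overlapped. Library 2 exceeded the mean of libraries 1 and 3 by 10.5% for Chil3, 9.28% for Camp, 8.27% for Lcn2, 4.29% for Ngp, 1.16% for Mmp8 and 0.926% for Ltf. With FPKM from the reads listed, or scaled to protein-coding reads without globins, Mmp8 was not highest in library 2 either, which left 4 of 6. Library 2 was singled out after its values had been seen. The median over members was -8.41% for primary and 6.28% for later granule genes, against -0.502% over all tested genes and 0.607% over the 415 genes of at least 100 FPKM.

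**Figure D3:**
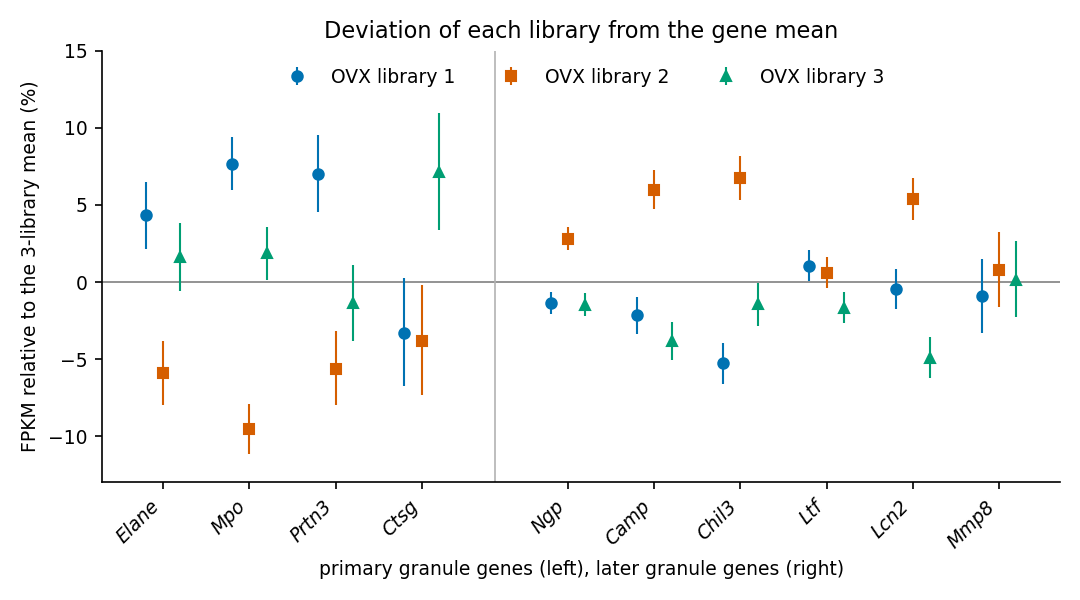
FPKM of each member in OVX libraries 1, 2 and 3 as the percent difference from its mean over the libraries, with exact Poisson 95% intervals as bars, for primary granule genes on the left and later ones on the right. Library 2 lies lowest for all 4 primary granule genes, at -9.53% for Mpo, and highest for 5 of 6 later ones, at 6.74% for Chil3. Its interval overlaps that of another library for Prtn3, Ctsg, Ltf and Mmp8.

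A chi-square test compared the reads of each gene with the totals of the libraries, and p-values were adjusted by Benjamini-Hochberg over all tested genes. It called 9 of 10 members as differing between libraries. Over all tested genes 38.7% were called, and 78.3% of the 415 genes of at least 100 FPKM, which have more reads. The count of members is thus near that of genes at their level. Mpo had the smallest adjusted p by this chi-square test, 9.36e-56, with its highest library 1.19 times its lowest. Camp followed with an adjusted p of 2.16e-24 and a range of 1.10 times, while Ctsg had 0.000201 at 1.11 times. Mmp8 was not called, with an adjusted p of 0.938 at 1.02 times. Without library 3 Ctsg was not called, and without library 2 Chil3 was not called. The test compares libraries, not conditions.

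The members are spread over several chromosomes (mm10). Elane (ENSMUSG00000020125, chromosome 10, 79886247 to 79888215) and Prtn3 (ENSMUSG00000057729, 79874476 to 79883174) are neighbours on the plus strand with 3072 bases between them. Cfd, which encodes the adipocyte protease adipsin, follows Elane after 2637 bases. Cfd had 55.1, 184 and 9.25 FPKM in libraries 1, 2 and 3, so that it was highest in the library where Elane and Prtn3 were lowest. Camp (ENSMUSG00000038357, chromosome 9, 109847379 to 109849617, minus strand), Ngp (ENSMUSG00000032484, 110419747 to 110423012, plus strand) and Ltf (ENSMUSG00000032496, 111019271 to 111042767, plus strand) lie within 1195 kb, a span with 54 listed genes. Mmp8 (ENSMUSG00000005800, 7558456 to 7568485) is elsewhere on chromosome 9. Mpo (ENSMUSG00000009350, chromosome 11, 87793581 to 87804413) contains the antisense gene Gm11505, listed at 0.185 FPKM on average. Prtn3 overlaps Plppr3 on the other strand by 159 bases, and Plppr3 stood at 7.54 FPKM on average. Whether the counting used strand is not given, so reads in these overlaps are uncertain. Ctsg (ENSMUSG00000040314, chromosome 14), Lcn2 (ENSMUSG00000026822, chromosome 2) and Chil3 (ENSMUSG00000040809, chromosome 3) overlap no listed gene.

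Other genes of the neutrophil path were read from lists of known roles. Over all tested genes 38.7% were called, 36.8% were lowest and 34.8% highest in library 2. Among genes of at least 100 FPKM these shares were 78.3%, 31.6% and 35.9%. Of 9 tested genes of primary granules or early stages (Bpi was below 1 FPKM), 5 were lowest and 2 highest in library 2, with a median of -4.42% against the mean of libraries 1 and 3. All 9 were called by the chi-square test. Nkg7, a granule membrane protein, had 41.2, 35.5 and 41.2 FPKM in libraries 1, 2 and 3, and Srgn, the proteoglycan that packs granule proteases, had 133, 128 and 135. Cd63, a tetraspanin of primary granules and lysosomes in many cell types, was highest in library 2, with 54.9, 73.6 and 57.4 FPKM. Lyz2, the lysozyme found in granules of several classes, had 2819, 2786 and 2753 FPKM.

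Of 10 tested specific granule genes outside the members, 6 were highest and 2 lowest in library 2, with a median of 8.79%, and 7 were called. Hp, the haemoglobin-binding haptoglobin, had 257, 311 and 254 FPKM, while Cyba, a subunit of the NADPH oxidase, had 250.8, 247 and 249.1. Anxa3, an annexin of specific granules, had 21.7, 21.1 and 17.5 FPKM. Of 6 tested gelatinase granule genes (Arg1 was below 1 FPKM), 3 were highest and 1 lowest in library 2, and all 6 were called. For both lists the shares over all tested genes are 34.8% highest in library 2 and 38.7% called, or 78.3% called from 100 FPKM. Retnlg, a resistin-like protein, had 942, 1072 and 973 FPKM. Mmp9, gelatinase B, had 187, 307 and 223 FPKM. Osteoclasts also make Mmp9, and their markers Ctsk, Acp5, Calcr, Ocstamp and Dcstamp summed to 196, 772 and 587 FPKM in libraries 1, 2 and 3. Their part in the values of Mmp9 was not tested.

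Of 14 genes of mature neutrophils, 7 were highest and 3 lowest in library 2, with a median of 10.9%, and 5 were called. The share called was near the 38.7% of all tested genes, of which 34.8% were highest in library 2. Ccl6, a chemokine, had 103, 127 and 105 FPKM, and Wfdc21, a whey acidic protein family member, had 333, 382 and 333. Csf3r, the receptor of the granulocyte growth factor G-CSF, was lowest in library 2 with 94.5, 81.6 and 84.0 FPKM, and had the smallest adjusted p of this list by the chi-square test, 1.06e-18. The list holds 4 genes of the stefin cluster, Stfa1, Stfa2, Stfa3 and Stfa2l1, as well as BC100530, which resemble each other, so reads may be shared among them. None of these 5 was called, with 9 to 178 reads per library. Of 10 transcription factors of granule genes, 6 were highest and 2 lowest in library 2, and 3 were called, a share below the 38.7% of all tested genes. Cebpa, which starts the granulocyte programme, had 34.8, 40.0 and 33.3 FPKM (chi-square test, adjusted p = 9.69e-06). Cebpb, a factor of emergency granulopoiesis, was highest in library 3 with 43.3, 49.6 and 51.8 FPKM (chi-square test, adjusted p = 0.00158). Myb, a factor of immature blood cells, was highest in library 1 with 32.7, 29.0 and 28.2 FPKM (chi-square test, adjusted p = 1.53e-16). Csf3r and Myb were chosen after their values were seen. Cebpe, the factor of the specific granule stage, had 90.8, 95.8 and 88.4 FPKM, and Spi1, which encodes PU.1, had 74.5, 78.3 and 75.3. Neither of these was called, with adjusted p of 0.126 and 0.427 by the chi-square test.

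**Figure D4:**
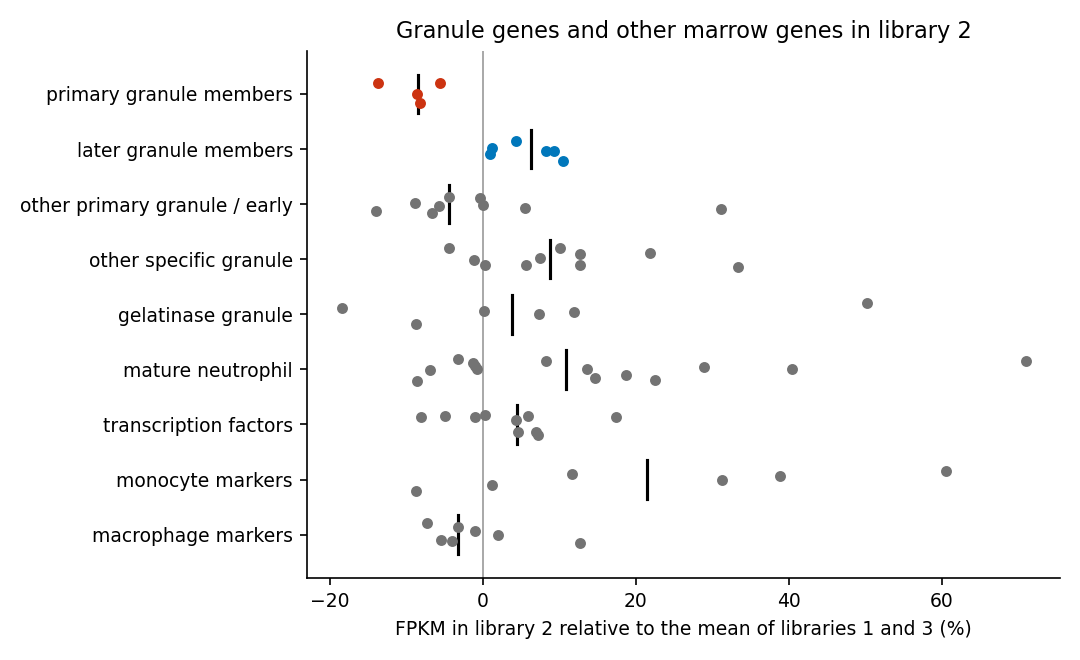
FPKM in library 2 relative to the mean of libraries 1 and 3, in percent, for each tested gene (points) of the granule classes and of other marrow gene lists, with the median as a bar. The primary granule members lie between -13.6% and -5.62% and the later members between 0.926% and 10.5%.

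Markers of other blood cells also differed between the libraries. The 6 monocyte markers summed to 274, 313 and 301 FPKM in libraries 1, 2 and 3, and the 7 macrophage markers to 497, 496 and 506. Of the monocyte markers 4 of 6 were highest in library 2, but Ly6c2, a surface protein of inflammatory monocytes, had 157, 143 and 156 FPKM. The 6 eosinophil markers summed to 2559, 3320 and 3153 FPKM in libraries 1, 2 and 3, with 6 of 6 lowest in library 1. The 6 basophil and mast cell markers summed to 119, 160 and 132 FPKM, with 4 of the 5 tested highest in library 2. Tpsb2, a tryptase of mast cells, had 1, 1 and 0 reads, and no other marker of the lists given here was at 0 in any library. The 5 erythroid markers summed to 37062, 40044 and 46365 FPKM, with 5 of 5 highest in library 3, and the 5 B cell markers to 503, 448 and 457, with 3 of 5 lowest in library 2. The part of these cells in the granule values was not tested. Of the 14011 tested genes, 4552 were lowest in library 1 and 4470 highest in library 3, while 36.8% were lowest and 34.8% highest in library 2. Of the 415 genes of at least 100 FPKM, 213 were lowest in library 1 and 189 highest in library 3, while 31.6% were lowest and 35.9% highest in library 2. Among genes of at least 100 FPKM, the median of library 2 against the mean of the others was 0.666% for the 106 genes under 1000 bases and -0.647% for the 39 genes of 4000 bases or more.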

How the data were processed

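The values are FPKM as the authors deposited them, beside coordinates, biotype and 1 length per gene. Trimmomatic and FastQC as well as STAR and featureCounts are named for build mm10 per the submitters' processing notes. Their versions and strand setting were not given in the sources used here. Columns were tied to samples by library name, which succeeded for the 3 of OVX. The names of 3 more columns of values matched no label. These were not used, although they could be taken for Zin by elimination, and the planned limma and permutation tests of Zin against OVX were not run. The series' design text speaks of biological replicates but no label names animals. The SD thus describes how far the libraries vary, and this variation could be of technical origin. The chi-square p-values compare differences among libraries with counting error alone. Neither can be read as variation between animals.

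FPKM times gene length gave whole reads for 100% of values, within 0.01 read. Libraries 1, 2 and 3 held 17017907, 16964740 and 16581579 reads, while FPKM had been scaled to totals 1.02, 0.993 and 0.997 times as large. Where a gene had 0 reads, up to 3 remain possible. Intervals are at 95% and, like this limit, cover counting error only. Genes averaging 1 FPKM or more were tested by a chi-square test of reads against the reads listed, adjusted by Benjamini-Hochberg over all 14011 with a threshold of 0.05. The procedure was first tested on simulated reads with counting error alone and known changes in library 2. It found 81% of changes of 1.5 times and 93% of changes of 2.0 times, and called 0.0869% of unchanged genes. Changes as small as those of the members, and other spread between libraries, were not simulated. All 10 members had the same start and end in GENCODE M21. Promoters are from RefSeq on GRCm38.p6, matched by symbol for 10 of 10 members.

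All members are named, with up to 4 genes of each other list, the 2 highest by mean and the 2 most variable. Beside these, genes are named where they are neighbours, list members or shared-read cases, chosen after their values were seen. The members and lists were chosen with earlier results of these data known. The progenitor marker list is not reported here. Alternatives were 3 other scalings, other ways to sum the classes, other filters and leaving out each library. The chi-square test and intervals were computed in scipy 1.17.1 (Python 3.11.15).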

Additional observations from a re-analysis of the deposited data

How the results depend on the processing

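No paired analysis was possible because the columns of values tied to labels come from the OVX group alone. For the same reason the alternatives listed for Zin against OVX were not run. The alternatives for library 2 were chosen after seeing the data. The mean FPKM of each member stayed within 1 SD of its value under each of 3 other scalings. The factors of these scalings were close to 1, so the means could hardly move and this check says little. The mean ratio of the primary to the later sum, 0.152, became 0.323 with geometric means, 0.171 with reads in place of FPKM and 0.168 without Chil3, since each of these measures another quantity. It was 0.155 without Mmp8 and ran from 0.147 to 0.159 with 1 library left out. The decrease of that ratio in library 2, -14.4%, was between -15.1% and -13.6% under all alternatives tried. Under median-of-ratios totals, no filter, a mean of at least 5 FPKM or without library 1, 9 members were called, and 8 without library 2 or without library 3. The share called among all genes tested was 38.7% in the main setting and 37.4% under median-of-ratios totals. It was 22.4% with no filter and 44.9% with a mean of at least 5 FPKM. Without library 1, 2 or 3 it was 24.99%, 18.2% and 29.7%. All 4 primary granule genes were lowest in library 2 under every scaling and without library 1 or 3. For Ctsg, however, libraries 1 and 2 differed by less than counting error. Of the later granule genes 4 or 5 were highest in library 2 under the other scalings, 6 without library 1 and 5 without library 3. With 1 library left out, lowest or highest is decided against a single other library, which is easier to meet. Shares over all genes were not computed for these counts of members lowest or highest in library 2. Depth was not the limit for most members, which held 2854 to 71480 reads per library. The 3 other scalings divided libraries by 0.985 to 1.02, so differences of this size, as for Mmp8 and Ltf, depend on the scaling. The protein-coding scaling divided library 1 by 0.987 and library 2 by 1.02, which lowers library 2 against library 1 for every gene. The excess of Ngp in library 2, 4.29% by FPKM, is thus also sensitive to it, and those of Camp, Lcn2 and Chil3 become smaller. These genes stayed highest in library 2 under each scaling.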
